A study of Mus musculus with 31 samples.

Results

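Zfp genes are mouse genes named as zinc finger proteins with a running number, a naming family that holds a large share of the cell's DNA-binding proteins. In the allele-resolved RNA-seq tables of F1 hybrids between C57BL/6 (B6) and JF1 mice, 311 features carried such a name, with Zfp42 set aside by the rule. After leaving out 51 features on chromosomes 17 and X and 25 features whose mean stayed under 20 read bases in every table, 235 of 17484 features remained. These 235 Zfp genes were described by their level at each stage, with both alleles added, and by the share of read bases that came from the B6 allele. A read base is a sequenced base that fell on a B6 to JF1 strain difference, so it tells the allele apart, and 1 read that crosses several differences gives several read bases. Levels are given as read bases scaled to the library's size with TMM factors (CPM) and are compared between samples, never between genes, because genes differ in how many strain differences they hold.

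The study asked whether cortex made from embryonic stem cells (ESCs) in culture keeps the allelic expression of the cortex in the mouse. BJ1 hybrids had a B6 mother and a JF1 father, and JB6 hybrids had a JF1 mother and a B6 father. The culture series held undifferentiated ESCs, cells at day 12 and cells at day 21 of differentiation to cortex, each with 4 libraries, 2 of each cross and all labelled male. The hybrid ESCs were derived from blastocysts of crosses in which the B6 parent carried the Oct4-GFP transgene, were kept in medium with LIF, BMP4 and a GSK3β inhibitor, and were differentiated on matrigel in a defined medium with B27 lacking vitamin A and with cyclopamine, an inhibitor of Hedgehog signalling, at 1 µM from day 2 to day 10. The mouse tissue held 6 libraries at E13.5, an embryonic age (labelled DT), 3 of each cross, and 7 at birth (P0, labelled Ctx), 4 BJ1 and 3 JB6, with no treatment given in the labels. Of these 13 tissue libraries 11 were female, the exceptions being E13.5 BJ1 replicate 1 and P0 BJ1 replicate 2. Sex, culture and the source of the cells therefore changed together between culture and tissue and cannot be told apart. The labels name no separate ESC lines within a cross, so in culture parent of origin and cell line cannot be told apart. The labels do not say whether replicates came from separate cultures or animals, so each p-value measures only the spread between these libraries.

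Most Zfp genes encode C2H2 zinc fingers, short folds in which a pair of cysteines and a pair of histidines hold a zinc ion and the residues between them read DNA. Many of these proteins also begin with a KRAB box, which recruits the corepressor TRIM28 (KAP1) and the histone methyltransferase SETDB1 and is known for silencing transposable elements and holding imprinted regions in their methylated state. KRAB zinc finger genes stand in clusters of duplicated neighbours and diverge quickly between mouse strains. Others in the family act without a KRAB box, among them pluripotency factors, factors of neural development, and CCCH proteins such as Zfp36 that bind RNA and not DNA.

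The finger is easiest to see in the coding sequence. The 4 stretches here are the coding bases of 1 C2H2 finger each, read from GRCm38 with GENCODE M21 gene models, in coding exons, 5′ to 3′ on the coding strand. They come from Zfp568 (chr7:30022886-30022969, plus strand), Zfp809 (chr9:22239013-22239096, plus strand), Zfp423 (chr8:87783196-87783279, minus strand) and Zfp238 (chr1:177448210-177448293, plus strand), the genes with the clearest level or allele patterns reported here. Capitals mark the codons of the 2 cysteines and the 2 histidines.
Zfp568 finger: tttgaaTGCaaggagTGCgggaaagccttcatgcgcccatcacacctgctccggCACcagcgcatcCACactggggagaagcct
Zfp809 finger: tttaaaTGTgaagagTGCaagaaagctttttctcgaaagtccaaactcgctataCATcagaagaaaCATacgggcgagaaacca
Zfp423 finger: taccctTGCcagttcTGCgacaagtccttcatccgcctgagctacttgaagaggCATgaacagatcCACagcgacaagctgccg
Zfp238 finger: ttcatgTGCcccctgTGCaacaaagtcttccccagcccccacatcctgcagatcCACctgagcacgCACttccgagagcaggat
Each stretch also holds a few codons on either side of the finger. In Zfp568 and Zfp809 the stretch ends with the linker that joins fingers in arrays of the KRAB type, and in Zfp423 and Zfp238 it does not. A finger with the linker was taken where the search found one. The 3 KRAB-A stretches come from Zfp568 (chr7:29997768-29997800, plus strand), Zfp809 (chr9:22235038-22235070, plus strand) and Zfp445 (chr9:122856775-122856807, minus strand), also in coding exons of GRCm38. Capitals mark the codons at the start and end of the pattern by which the box was recognised.
Zfp568 KRAB-A: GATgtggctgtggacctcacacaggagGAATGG
Zfp809 KRAB-A: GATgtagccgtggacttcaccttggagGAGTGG
Zfp445 KRAB-A: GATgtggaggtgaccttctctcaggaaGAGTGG
By this pattern 88 of 233 members with a translated transcript held a KRAB-A box, with a median of 11 fingers, and 145 held none, with a median of 8. Of the 233, 17 had fewer than 2 C2H2 fingers, and the longest array had 36.

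The 25 libraries held 5192382 to 8618253 read bases each, and the B6 allele took 50.6% to 52.1% of the autosomal read bases. Marker genes followed the stage labels: the summed level of 5 pluripotency genes was 2348 to 5566 CPM in ESCs, 9.36 to 43.8 CPM at day 12 and at most 2.56 CPM in tissue. Culture and tissue differed in cell make-up. The 5 listed dorsal telencephalic progenitor markers, of 6 fixed, summed to 25.6 to 71.7 CPM at day 12, 55.2 to 79.1 at day 21, 617 to 820.4 at E13.5 and 378 to 483 at P0. The 8 cortical neuron markers summed to 1131 to 1483 CPM at day 21 and 9109.8 to 9899.9 at P0. The 6 glial markers summed to 115 to 198 CPM at day 12 and 302 to 751 at day 21, against 6.82 to 67.5 at E13.5 and 517 to 674 at P0. The 4 markers of GABAergic neurons summed to 7.34 to 25.9 CPM at day 12 and 51.9 to 92.6 at day 21, against 27.2 to 111 and 280.2 to 401 in tissue. The 3 listed markers of blood, vascular and microglial cells, of 6 fixed, summed to 20.3 to 123 CPM over all libraries. The 8 markers of mesendoderm and other lineages summed to 457 to 1645 CPM at day 12 and 1827 to 2787 at day 21, against 3.19 to 93.6 at E13.5 and 30.1 to 65.2 at P0, where Gata4 was at 0 in every library at both ages and Gata6 and Afp at 0 at P0. Their part in the differences between culture and tissue was not tested. ESC JB6 replicate 1 stood apart from the other ESC libraries, with the lowest summed pluripotency level (2348 CPM) and the lowest Zfp total. The counts of level changes from ESCs to day 12 are given without it as well. ESC means and log2 values of single genes include it.

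Together the 235 genes took about 1 in 100 autosomal read bases, and the share was highest in the E13.5 tissue. It was 1.47% ± 0.0817 (SD, n = 6) at E13.5, ranging from 1.33% to 1.57%, and 1.13% ± 0.0512 (SD, n = 7) at P0, ranging from 1.04% to 1.19%. In ESCs it was 0.896% ± 0.158 (SD, n = 4), with 0.669% in JB6 replicate 1 and 1.04% at the top. At day 12 it was 0.771% ± 0.0747 (SD, n = 4) and at day 21 0.699% ± 0.0323 (SD, n = 4), ranging from 0.664% to 0.741%. Every E13.5 library lay above every other library, and every P0 library lay above every day 12 and day 21 library. Counted gene by gene, 99 members (42.1%) had their highest mean level at E13.5, and 13 (5.53%) had it at day 21. Of all 11714 genes on the same chromosomes and over the same floor in at least 1 table, 16.4% and 20.9% did. ESCs were the highest stage of 56 members, P0 of 47 and day 12 of 20. The lowest stage was day 21 for 86 members and E13.5 for 10.

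**Figure D1:**
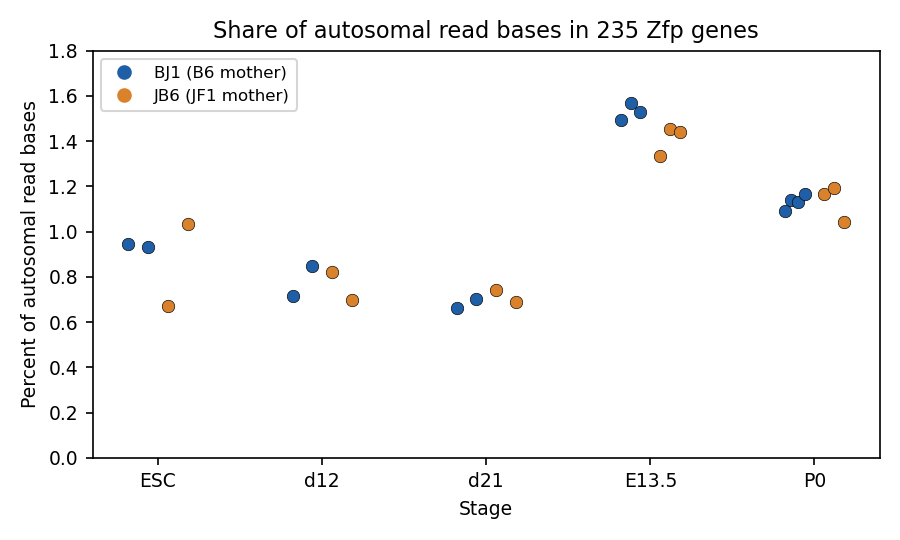
Share of autosomal read bases (percent) that fell in the 235 Zfp genes, 1 point per library, by stage and coloured by cross. The E13.5 libraries lie highest, between 1.33% and 1.57%, and the day 21 libraries lie between 0.664% and 0.741%.

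Culture against tissue of the matching stage gave the widest difference in the family, and it ran toward lower levels in culture. Lower and higher here mean culture against tissue, not a change along the culture. By edgeR's quasi-likelihood test with Benjamini-Hochberg adjustment, 139 of 219 tested members were lower and 40 higher at day 12 against E13.5. Of all genes tested, 40.3% were lower and 40% higher. At day 21 against P0, 135 of 213 were lower and 38 higher, beside 41.6% of all genes lower and 42.2% higher. The median log2 difference of the members was -0.81 at day 12 against E13.5 and -0.65 at day 21 against P0, while the medians of all tested genes were -0.0096 and -0.000769. Of 211 members tested in both comparisons, 117 were lower in culture in both. This is 88.0% of those lower at day 12 and 87.3% of those lower at day 21. Another 32 were higher in both, and 4 were called in opposite directions. The same overlap was not counted over all genes, so it cannot be read as a trait of these members. The comparisons share no library, but their cultures come from the same crosses and are not independent. In these bulk samples fewer cells of a type and less RNA per cell cannot be told apart.

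The difference was larger among genes with a KRAB-A box than among those without. At day 12 against E13.5, 61 of 79 tested genes with the box were lower and 5 higher (median log2 -1.16), while 77 of 138 without it were lower and 35 higher (median log2 -0.53). At day 21 against P0, 56 of 74 with the box were lower and 5 higher (median log2 -1.04), and 78 of 137 without it were lower and 32 higher (median log2 -0.44). Members with 10 or more C2H2 fingers, many of which also hold the box, were similar. Of these, 77 of 108 were lower and 15 higher at day 12 (median log2 -1.03), and 74 of 102 lower and 12 higher at day 21 (median log2 -0.86). Box and finger number were not separated, and the difference between the classes has no test here. Reads of near-identical copies can be confused. Among the 169 members with at most 1% of their 50-base stretches shared with another gene, 101 of 163 were lower at day 12 and 101 of 161 at day 21.

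**Figure D2:**
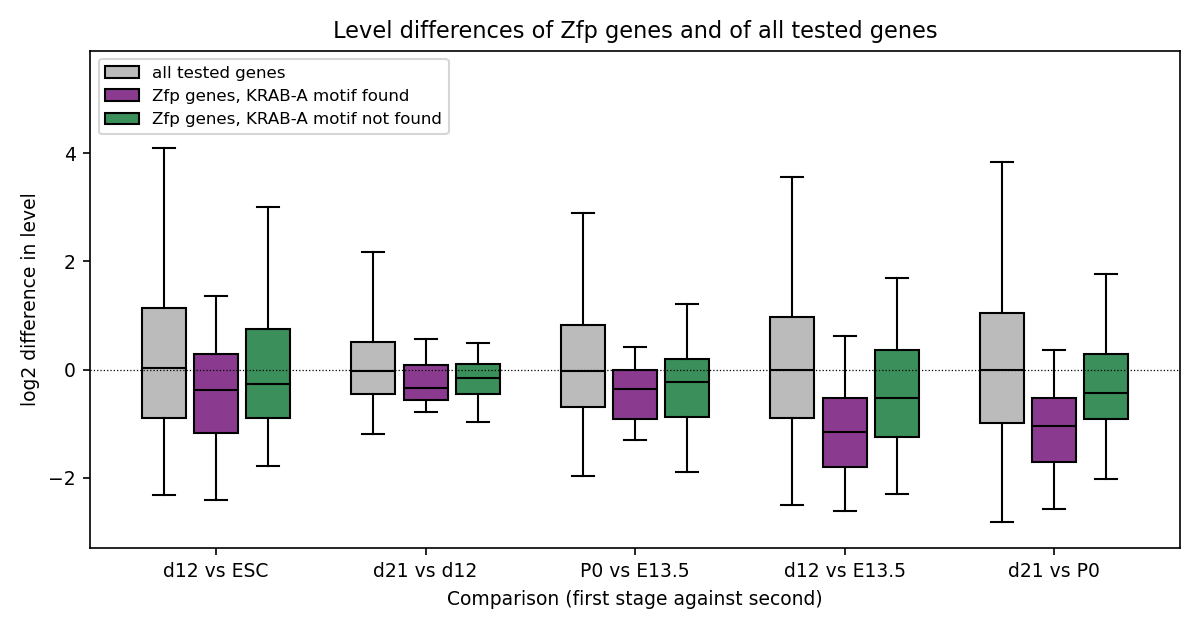
Log2 difference in level for 5 comparisons of stages, for all tested genes, Zfp genes with a KRAB-A box and Zfp genes without one (line: median; box: quartiles; whiskers: 5th to 95th percentile of genes). The boxes of the KRAB-A genes lie lowest in culture against tissue, with medians of -1.16 at day 12 against E13.5 and -1.04 at day 21 against P0.

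Zfp238 was furthest below tissue in culture among the members named by size of change. Zfp238, now named Zbtb18, encodes a transcriptional repressor needed for cortical neuron production. Its level at E13.5 was 103 CPM at the lowest, 144 CPM at the median and 184 CPM at the highest, and at P0 159.9 CPM at the lowest, 277 CPM at the median and 301 CPM at the highest. In day 12 cultures it was 4.69 CPM and 7.07 CPM in the BJ1 libraries and 3.29 CPM and 7.70 CPM in the JB6 libraries, and in day 21 cultures 3.21 CPM and 4.56 CPM in the BJ1 libraries and 8.64 CPM and 3.04 CPM in the JB6 libraries. Every tissue library lay far above every culture library, and the log2 difference was -4.51 ± 0.20 SE at day 12 (edgeR adjusted p = 1.20e-09) and -5.65 ± 0.25 SE at day 21 (edgeR adjusted p = 4.61e-12). Along the culture Zfp238 had no call (log2 -0.14 from ESCs to day 12, edgeR adjusted p = 0.78, and -0.30 from day 12 to day 21, edgeR adjusted p = 0.544). Among members whose mean reached 50 read bases over both stages, the next lowest at day 12 against E13.5 were Zfp663 (log2 -4.18), Zfp773 (-3.28), Zfp882 (-3.05), Zfp658 (-3.03) and Zfp329 (-2.97). At day 21 against P0 they were Zfp663 (log2 -3.48), Zfp804a (-3.36), Zfp641 (-2.97), Zfp385b (-2.95) and Zfp286 (-2.76). Below that floor, Zfp804a (-3.73), Zfp330 (-3.57) and Zfp783 (-3.47) were called with lower values than Zfp773 at day 12, and Zfp783 (-2.83) with a lower value than Zfp286 at day 21. Zfp709 had no read base in any day 12 library and 124 over the E13.5 libraries, so it was at least 28.0-fold lower, with a floor of 3 read bases over the group.

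Fewer members were higher in culture than in tissue, and none of the 9 genes named here as higher had a KRAB-A box by the pattern. Zfp503, a Nolz family factor known from striatal development, was at 94.0 CPM and 94.3 CPM in the BJ1 libraries and 103 CPM and 56.1 CPM in the JB6 libraries at day 12 and at 1.27 CPM at the lowest, 3.13 CPM at the median and 4.72 CPM at the highest at E13.5 (log2 4.94; day 21 against P0 4.99). Zfp36, tristetraprolin, which binds AU-rich mRNAs and speeds their decay, was at 40.1 CPM and 34.3 CPM in the BJ1 libraries and 53.9 CPM and 24.9 CPM in the JB6 libraries at day 12, at 35.5 CPM and 34.3 CPM in the BJ1 libraries and 32.3 CPM and 27.1 CPM in the JB6 libraries at day 21, and at no more than 3.11 CPM in any tissue library. Its log2 differences were 4.52 and 4.25. Zfp750, a factor of epidermal differentiation, had the largest difference of day 21 against P0: its level was 28.9 CPM and 25.1 CPM in the BJ1 libraries and 16.6 CPM and 17.1 CPM in the JB6 libraries at day 21, and it stayed at or under 0.256 CPM in tissue. The fitted log2 of 8.06 rests on very few P0 read bases and is no bound. Zfp395 was higher in both comparisons (log2 2.23 and 3.46). Zfp575, Zfp473 and Zfp385a were the others named as higher at day 12 than at E13.5 (log2 2.08, 1.93 and 1.92). Those named as higher at day 21 than at P0 were Zfp36l1 and Zfp217 (log2 3.18 and 2.82). These higher levels stood beside higher sums of the markers of mesendoderm and other lineages in the same cultures, and the relation was not tested.

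Along the culture, 71 of 207 tested members fell and 49 rose from ESCs to day 12, beside 32.9% of all genes lower and 34.5% higher, with a median log2 of -0.32 for the members. Without ESC JB6 replicate 1 the counts were 87 lower and 53 higher, beside 3734 and 3940 of all genes, against 3450 and 3615 with it. Within 1 cross, 126 members were called in either direction in BJ1 and 48 in JB6. Of all genes, 3711 were lower and 3871 higher within BJ1, and 1542 lower and 1955 higher within JB6. Among members whose mean reached 50 read bases over both stages, the largest falls were those of Zfp534 (log2 -7.15), Zfp296 (-5.43), Zfp281 (-4.17), Zfp654 (-2.75), Zfp473 (-2.51) and Zfp566 (-2.42). Below that floor, Zfp345 (-5.94), Zfp951 (-3.07) and Zfp599 (-2.72) were called with falls of that size. Zfp819 and Zfp936 went from 1004 and 160 read bases over the ESC libraries to 0 over the day 12 libraries, at least 374-fold and at least 59.6-fold lower with a floor of 3 read bases over the group. Zfp534, Zfp345, Zfp566 and Zfp936 share 68.4%, 29.8%, 15.6% and 15.6% of their 50-base stretches with another gene, so their values are uncertain. The largest rises were those of Zfp503 (log2 6.34), Zfp703 (4.73), Zfp362 (4.34), Zfp9 (3.91), Zfp358 (3.91) and Zfp768 (3.72).

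From day 12 to day 21 the family moved less: 43 of 201 fell and 14 rose, beside 22.5% of all genes lower and 25.2% higher. Within 1 cross 35 members were called in BJ1 and 25 in JB6. Of all genes, 1999 were lower and 2314 higher within BJ1, and 1321 lower and 1935 higher within JB6, against 2537 and 2838 with both crosses. Among members whose mean reached 50 read bases over both stages, the largest falls were those of Zfp473, Zfp277, Zfp35, Zfp940, Zfp451 and Zfp239, from -2.07 to -0.97 on the log2 scale. Below that floor, Zfp189 (-1.64), Zfp143 (-1.36), Zfp354a (-1.19), Zfp69 (-1.07) and Zfp105 (-1.03) fell by as much. Zfp750 rose most (log2 4.11 ± 0.29 SE, edgeR adjusted p = 2.75e-07), from 1.19 to 21.9 CPM. Zfp827, Zfp398, Zfp658, Zfp956 and Zfp862 followed with log2 of 0.96, 0.84, 0.83, 0.73 and 0.73 over the floor, and below it Zfp641 (1.49), Zfp784 (1.13) and Zfp14 (0.93) were called with rises of that size. The call of Zfp658 was lost without day 21 BJ1 replicate 2, day 21 JB6 replicate 1, day 12 BJ1 replicate 1 or day 12 JB6 replicate 2 (edgeR adjusted p between 0.0669 and 0.0969), and that of Zfp956 without day 21 BJ1 replicate 1 or day 12 BJ1 replicate 1 (edgeR adjusted p between 0.0569 and 0.0724).

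In the mouse, the family fell from E13.5 to P0. Of 217 tested members 113 fell and 42 rose, beside 41.4% of all genes lower and 40.1% higher, with a median log2 of -0.27 against -0.02 for all genes. With the box, 45 of 80 fell and 9 rose, and without it 67 of 135 fell and 33 rose. Zfp217 (log2 -2.61), Zfp521 (-2.35), Zfp62 (-2.29), Zfp422 (-2.14), Zfp105 (-2.06) and Zfp518a (-1.94) fell most. Zfp385b rose most, from 0.172 CPM at the lowest, 0.629 CPM at the median and 1.50 CPM at the highest at E13.5 to 11.9 CPM at the lowest, 14.4 CPM at the median and 17.3 CPM at the highest at P0 (log2 4.29 ± 0.23 SE, edgeR adjusted p = 4.44e-12). It was followed by Zfp641 (log2 2.78), Zfp575 (2.70), Zfp804a (2.26), Zfp704 (1.83) and Zfp9 (1.66). Marker sums of other cell types were higher at P0 than at E13.5, for the 8 cortical neuron markers 1170.2 to 2178 CPM at E13.5 and 9109.8 to 9899.9 CPM at P0, for 6 glial markers 6.82 to 67.5 and 517 to 674 CPM, and for 4 markers of GABAergic neurons 27.2 to 111 and 280.2 to 401 CPM. Their part in these changes was not tested.

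**Figure D3:**
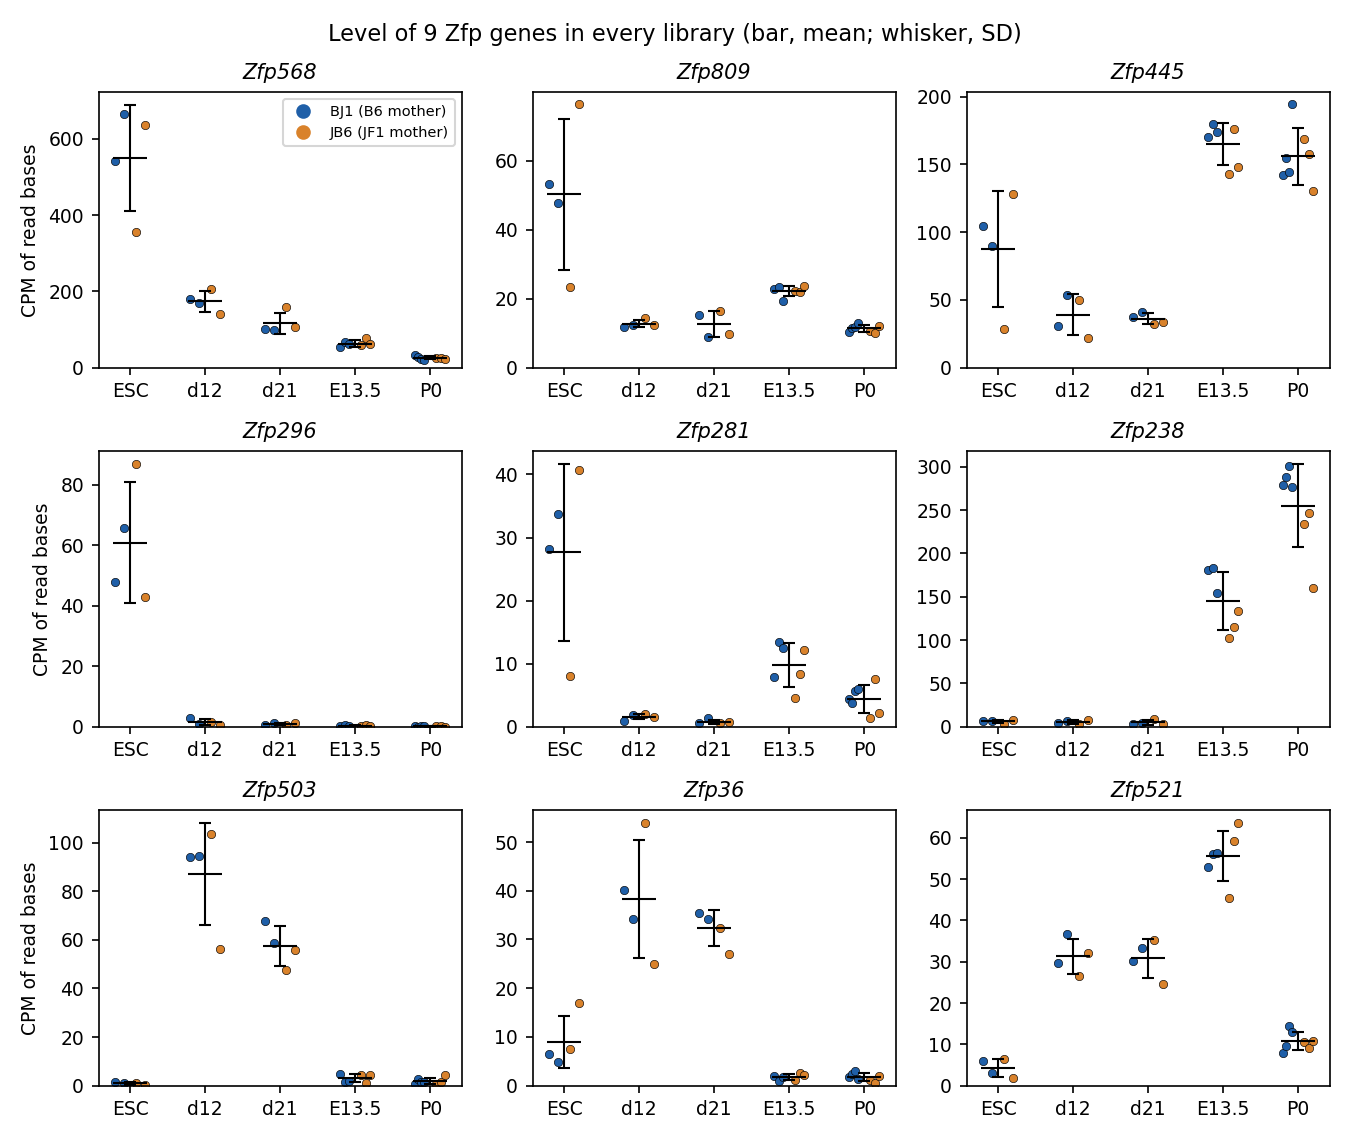
Level (CPM, read bases scaled to library size) of 9 Zfp genes in every library, by stage, with the mean as a bar and the SD as a whisker. Zfp568, Zfp296 and Zfp281 are highest in ESCs, Zfp238 and Zfp445 in tissue, and Zfp503 and Zfp36 in culture at days 12 and 21.

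Among the genes known for KRAB-directed silencing, 4 of 7 listed were members. Zfp568, which represses a placental transcript of Igf2, fell at every step measured. Its level in ESCs was 542 CPM and 666 CPM in the BJ1 libraries and 357 CPM and 636 CPM in the JB6 libraries, at day 12 179 CPM and 171 CPM in the BJ1 libraries and 207 CPM and 140.1 CPM in the JB6 libraries, and at day 21 101 CPM and 99.0 CPM in the BJ1 libraries and 159 CPM and 105 CPM in the JB6 libraries. At E13.5 it was 53.2 CPM at the lowest, 61.6 CPM at the median and 77.6 CPM at the highest and at P0 21.3 CPM at the lowest, 24.5 CPM at the median and 32.7 CPM at the highest. Every culture library thus exceeded every library of the tissue at the same comparison, so Zfp568 ran opposite to most genes of its class: the log2 difference was 1.57 ± 0.14 SE at day 12 against E13.5 (edgeR adjusted p = 2.15e-07) and 2.19 ± 0.14 SE at day 21 against P0 (edgeR adjusted p = 1.55e-10).

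Zfp809, which recognises the primer binding site of murine leukemia viruses and silences them, was at 53.4 CPM and 47.8 CPM in the BJ1 libraries and 23.3 CPM and 76.5 CPM in the JB6 libraries in ESCs and at 11.9 CPM and 12.3 CPM in the BJ1 libraries and 14.4 CPM and 12.4 CPM in the JB6 libraries at day 12 (log2 -2.05 ± 0.34 SE, edgeR adjusted p = 3.69e-04). It also fell from E13.5 to P0 (22.2 ± 1.55 to 11.4 ± 1.03 CPM, SD, n = 6 and 7, log2 -0.95 ± 0.10 SE, edgeR adjusted p = 5.01e-08). Zfp445, which helps to keep imprinted regions methylated, was instead highest in tissue, at 165 ± 15.7 CPM (SD, n = 6) at E13.5 and 156 ± 21.0 CPM (SD, n = 7) at P0, with 39.2 ± 15.1 CPM (SD, n = 4) at day 12 and 36.1 ± 3.98 CPM (SD, n = 4) at day 21. Its log2 difference was -1.96 at day 12 against E13.5 and -2.07 at day 21 against P0, both past the threshold. In ESCs the Zfp445 level was 104 CPM and 90.1 CPM in the BJ1 libraries and 28.3 CPM and 128 CPM in the JB6 libraries, and its fall to day 12 (edgeR adjusted p = 0.0436) was lost without day 12 BJ1 replicate 1, day 12 BJ1 replicate 2, day 12 JB6 replicate 2, ESC BJ1 replicate 1, ESC BJ1 replicate 2 or ESC JB6 replicate 2 (edgeR adjusted p between 0.0694 and 0.129). Zfp819, which represses transposons, was at 48.7 ± 10.1 CPM (SD, n = 4) in ESCs and at no more than 2.60 CPM in any other library.

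Of 8 genes listed for the stem cell state, 6 were members. From ESCs to day 12, 3 of them fell with none rising, beside 32.9% of all genes lower and 34.5% higher. Zfp296, a partner of reprogramming factors, was at 47.9 CPM and 65.9 CPM in the BJ1 libraries and 86.9 CPM and 42.8 CPM in the JB6 libraries in ESCs and at 2.74 CPM and 0.907 CPM in the BJ1 libraries and 1.65 CPM and 0.711 CPM in the JB6 libraries at day 12. Zfp281, a regulator of the exit from pluripotency, went from 28.2 CPM and 33.7 CPM in the BJ1 libraries and 8.10 CPM and 40.6 CPM in the JB6 libraries in ESCs to 0.977 CPM and 1.81 CPM in the BJ1 libraries and 1.95 CPM and 1.54 CPM in the JB6 libraries at day 12 (log2 -4.17 ± 0.52 SE, edgeR adjusted p = 6.12e-05). No ESC library of either gene overlapped the day 12 libraries. Zfp217 was called lower at day 12 (edgeR adjusted p = 0.0425) and lost the call without day 12 BJ1 replicate 1, day 12 BJ1 replicate 2, day 12 JB6 replicate 2, ESC BJ1 replicate 1, ESC BJ1 replicate 2 or ESC JB6 replicate 2 (edgeR adjusted p between 0.0706 and 0.135). From E13.5 to P0, Zfp281, Zfp143, Zfp217 and Zfp322a fell, and Zfp706 rose (log2 0.19). Against tissue, Zfp217 was higher in culture (log2 0.64 at day 12 and 2.82 at day 21), and Zfp281, Zfp322a and Zfp706 were lower at both ages.

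Of 13 symbols listed for neural development, which are 12 genes because Zfp24 is the current symbol of Zfp191, 10 were members. Zfp521, which promotes early neural fate, rose from 5.88 CPM and 3.16 CPM in the BJ1 libraries and 6.44 CPM and 1.79 CPM in the JB6 libraries in ESCs to 29.7 CPM and 36.6 CPM in the BJ1 libraries and 26.7 CPM and 32.1 CPM in the JB6 libraries at day 12, and in tissue it fell from 55.6 ± 6.15 CPM (SD, n = 6) at E13.5 to 10.8 ± 2.25 CPM (SD, n = 7) at P0. Zfp703, related to Zfp503, was at 2.41 ± 1.43 CPM in ESCs, 67.9 ± 15.2 CPM at day 12 and 61.0 ± 10.6 CPM at day 21 (SD, n = 4 each), above the 22.2 ± 4.86 CPM of E13.5 (SD, n = 6). Zfp804a, whose human counterpart is linked to schizophrenia, was instead lower in culture, at 4.08 ± 1.86 CPM (SD, n = 4) at day 21 and 43.9 ± 3.72 CPM (SD, n = 7) at P0. At day 12 against E13.5, Zfp423, Zfp503 and Zfp703 were higher, while Zfp238, Zfp521, Zfp804a, Zfp536, Zfp191 and Zfp292 were lower. At day 21 against P0, Zfp521, Zfp423, Zfp503 and Zfp703 were higher, and Zfp238, Zfp335, Zfp804a, Zfp191 and Zfp292 were lower. Zfp335, a factor of neural progenitors, was called lower at day 12 than in ESCs (edgeR adjusted p = 0.023), and the call was lost without day 12 BJ1 replicate 2, day 12 JB6 replicate 1, day 12 JB6 replicate 2 or ESC BJ1 replicate 2 (edgeR adjusted p between 0.0517 and 0.0824).

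Of 11 genes listed for RNA binding, ribosome and spindle functions, 8 were members. Zfp36l1, a relative of Zfp36, rose from 25.6 ± 11.3 CPM in ESCs to 66.6 ± 10.3 CPM at day 12 (SD, n = 4 each), and fell in tissue from 30.8 ± 3.03 CPM (SD, n = 6) to 8.23 ± 1.49 CPM (SD, n = 7). Zfp36 and Zfp385a also rose to day 12 (log2 2.11 and 1.22). Zfp207, which loads the spindle checkpoint protein Bub3, was lower at the later stage or in culture in all 5 comparisons, with log2 from -1.27 to -0.37. Its call at day 21 against day 12 was lost without day 21 BJ1 replicate 1 or day 12 BJ1 replicate 1 (edgeR adjusted p between 0.0532 and 0.0553), and that against P0 without day 21 BJ1 replicate 1 (edgeR adjusted p = 0.0538). Zfp622, a factor of ribosome maturation, was higher in culture than in tissue at both ages (log2 1.34 and 0.47). Zfp326, part of a complex that links chromatin and splicing, was lower in culture at both ages (log2 -1.90 and -1.27). Its fall from ESCs to day 12 (edgeR adjusted p = 0.036) was lost without day 12 BJ1 replicate 1, day 12 BJ1 replicate 2, day 12 JB6 replicate 1, day 12 JB6 replicate 2, ESC BJ1 replicate 1, ESC BJ1 replicate 2 or ESC JB6 replicate 2 (edgeR adjusted p between 0.0517 and 0.108).

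The proteins that KRAB zinc fingers work through were taken as 21 listed KRAB cofactors. Between culture and tissue, 8 of 18 tested were lower and 5 higher at day 12, beside 40.3% and 40% of all genes, and 7 of 17 were lower and 5 higher at day 21, beside 41.6% and 42.2%. From ESCs to day 12, 9 of 18 fell and 1 rose, beside 32.9% of all genes lower and 34.5% higher. From E13.5 to P0, 15 of 17 fell and 1 rose, beside 41.4% and 40.1%. From day 12 to day 21, 12 of 18 fell and 1 rose, beside 22.5% and 25.2%. Trim28, the corepressor itself, was at 1282 ± 413 CPM in ESCs, 356 ± 34.9 at day 12 and 207 ± 16.1 at day 21 (SD, n = 4 each), and at 283 ± 29.7 at E13.5 (SD, n = 6) and 190.2 ± 11.7 at P0 (SD, n = 7). Its log2 difference at day 12 against E13.5 was 0.44 (edgeR adjusted p = 0.00156), and at day 21 against P0 0.16 (edgeR adjusted p = 0.0794). Setdb1 was at 40.9 ± 3.73 CPM at day 12 (SD, n = 4) and 70.5 ± 4.65 CPM at E13.5 (SD, n = 6).

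Zfp genes stand in clusters of neighbours. In gene order, 90 of the 235 members lay in 18 runs of at least 3 members with at most 2 other genes between neighbours, and 105 had no member next to them. Chromosome 7 held 81 members. The counts of each run stand beside 40.3% of all genes lower and 40% higher at day 12 against E13.5, and 41.6% lower and 42.2% higher at day 21 against P0. The longest run, 15 genes of chromosome 7 from Zfp84 to Zfp146 that includes Zfp568, had 14 of 15 lower at day 12 than at E13.5 and 13 of 15 lower at day 21 than at P0. Zfp568 was the 1 gene of the run that was higher at day 12. A run of 5 on chromosome 9 (Zfp560, Zfp26, Zfp426, Zfp266 and Zfp846) had 5 of 5 lower in culture at both ages, with medians of -1.64 and -1.45 on the log2 scale. Another chromosome 7 run holds 10 genes, from Zfp180 to Zfp94, and of the 9 tested 8 were lower and 0 higher at both ages. A run of 10 on chromosome 6 that holds Zfp783 and Zfp862 had 4 of 10 lower and 3 higher at day 12 and 4 of 10 lower and 5 higher at day 21, near the shares of all genes. A chromosome 7 run of Zfp579, Zfp524, Zfp865, Zfp784 and Zfp580 had 3 of 5 higher and 0 lower at day 12 than at E13.5. At day 21 against P0 it had 2 of 5 higher and 0 lower. A further chromosome 7 run, of Zfp768, Zfp747, Zfp764, Zfp688 and Zfp689, had 2 of 5 higher and 0 lower at both ages. Neighbours share sequence and chromatin, and are not replicates.

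Promoters were read from RefSeq on GRCm38.p6, where 192 member genes matched by NCBI gene identifier with 240 promoters, each of 300 bases from 250 before the start. An ETS motif, CCGGAAG on either strand, stood in 22.5% of the member promoters, 11.6% of protein-coding promoters and 8.86% of all promoters. It was in 29.7% of promoters of genes with a KRAB-A box and in 18.2% of those without. The letters AAGATGG, found in YY1 sites, were in 10.4% of the member promoters, 6.24% of protein-coding promoters and 6.34% of all promoters. The NRF1 letters GCGCATGC were in 6.25% of the member promoters, 3.52% of protein-coding promoters and 2.71% of all promoters, and GGGCGG, the SP1 box, in 47.1% of the member promoters, 46.2% of protein-coding promoters and 35.7% of all promoters. TATAAA was in 7.92% of the member promoters, 12.6% of protein-coding promoters and 13.6% of all promoters. CCAAT (37.9% of member and 38.2% of protein-coding promoters), CACGTG (5% and 7.83%), TGACGTCA (3.33% and 2.23%) and TCTCGCGA (2.08% and 1.41%) were searched as well. The median number of CpG dinucleotides in the 300 bases was 17 for members, 13 for protein-coding promoters and 7 for all promoters. These are matches of letters and have no test, and the last letters of the ETS motif are the first of the YY1 letters, so these can overlap. The 250 bases before the annotated start are shown for 3 members with the ETS letters and large changes in level or allele share: Zfp36 (chr7:28379229-28379478, minus strand), Zfp641 (chr15:98296162-98296411, minus strand) and Zfp560 (chr9:20385159-20385408, minus strand). Capitals mark the ETS letters or their complement, 92, 12 and 18 bases before the start.
Zfp36 upstream: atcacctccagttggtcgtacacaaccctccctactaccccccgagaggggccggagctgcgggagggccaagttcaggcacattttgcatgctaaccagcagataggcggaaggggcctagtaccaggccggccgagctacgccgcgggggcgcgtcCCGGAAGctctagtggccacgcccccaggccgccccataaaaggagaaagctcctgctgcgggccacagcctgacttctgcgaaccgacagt
Zfp641 upstream: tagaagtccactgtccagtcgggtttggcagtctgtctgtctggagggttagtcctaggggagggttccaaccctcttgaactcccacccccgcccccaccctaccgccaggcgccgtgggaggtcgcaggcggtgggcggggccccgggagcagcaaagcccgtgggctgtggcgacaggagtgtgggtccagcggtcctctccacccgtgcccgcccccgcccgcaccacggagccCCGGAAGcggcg
Zfp560 upstream: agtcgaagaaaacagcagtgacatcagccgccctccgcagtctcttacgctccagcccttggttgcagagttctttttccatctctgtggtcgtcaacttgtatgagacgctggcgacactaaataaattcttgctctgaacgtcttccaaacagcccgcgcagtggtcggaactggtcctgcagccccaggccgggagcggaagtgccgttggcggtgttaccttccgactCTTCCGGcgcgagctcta

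The B6 and JF1 alleles of many Zfp genes were unequal. By edgeR's quasi-likelihood test with Benjamini-Hochberg adjustment, 43 of 196 tested members leaned toward B6 and 31 toward JF1 in ESCs, which is 37.8% called beside 44.6% of all genes. At day 12 the counts were 30 and 21 of 203 (25.1% beside 35.9%), and at day 21 26 and 19 of 199 (22.6% beside 34.4%). At E13.5 they were 54 and 28 of 221 (37.1% beside 45.9%), and at P0 55 and 32 of 211 (41.2% beside 48.2%). The counts dropped to 47 in ESCs without BJ1 replicate 2 and to 27 at day 21 without JB6 replicate 1. DESeq2 called 36, 25, 17, 50 and 51 members at the 5 stages in the order given. The members were also less deeply covered, with a median of 116 read bases per library in ESCs against 190.5 for all tested genes, and 188.5 against 239 at E13.5. The part of this lower depth in the share of calls was not tested. The split toward B6 depends on scaling: when B6 and JF1 columns were scaled apart, the counts toward B6 and JF1 were 33 and 41 in ESCs. They were 25 and 30 for day 12 and 20 and 27 for day 21, and in tissue 34 and 55 at E13.5 and 34 and 52 at P0. That scaling moved the median log2 ratio of all genes from 0.0448 to -0.0672 at E13.5.

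By class, 22 of 77 tested genes with a KRAB-A box and 51 of 118 without it were called in ESCs, beside 44.6% of all genes. The counts were 22 of 71 and 28 of 131 at day 12 (beside 35.9%), and 18 of 65 and 26 of 133 at day 21 (beside 34.4%). In tissue they were 32 of 82 and 48 of 137 at E13.5 (beside 45.9%), and 33 of 77 and 52 of 132 at P0 (beside 48.2%). Members called with a mean B6 share above 75% or below 25% numbered 13 in ESCs, 11 and 7 in the day 12 and day 21 cultures, and 5 and 4 in E13.5 and P0 tissue. These are 6.63%, 5.42%, 3.52%, 2.26% and 1.90% of tested members, beside 5.44%, 3.12%, 3.29%, 2.50% and 2.15% of tested genes. The median distance of a called member's share from 50% was 12.3 percentage points in ESCs and 7.14 at E13.5, against 9.90 and 6.73 for called genes. Of 171 members tested at all 5 stages, 54 were called at none, 31 at 1, 36 at 2, 20 at 3, 18 at 4 and 12 at all 5. Of those called at 2 or more stages, 75 kept 1 direction and 11 had calls in both directions. These counts across stages were not made over all genes, so they do not set the members apart from other genes.

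**Figure D4:**
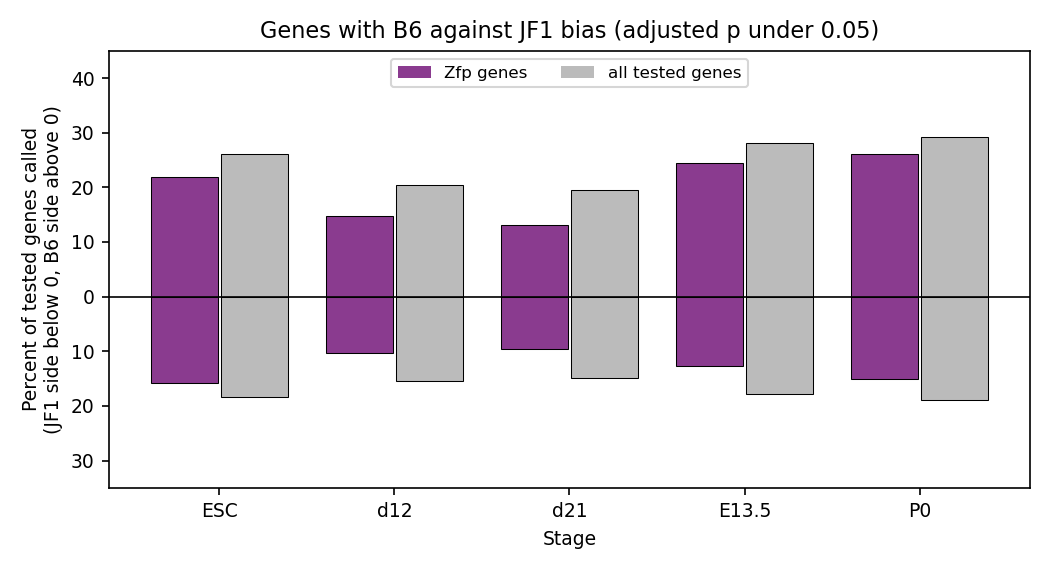
Percent of tested genes called as B6-biased (upward bars) or JF1-biased (downward bars) by edgeR at each stage, for the Zfp genes and for all tested genes. The Zfp bars are shorter in total than the bars of all genes at each of the 5 stages, from 22.6% beside 34.4% at day 21 to 41.2% beside 48.2% at P0.

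Of the 12 members called at every stage, 11 kept 1 direction. Zfp809, on chromosome 9, leaned to JF1 throughout. Its B6 share was 26.2% and 19.5% in the BJ1 libraries and 20.5% and 31.0% in the JB6 libraries in ESCs, 13.1% and 14.7% in the BJ1 libraries and 22.9% and 17.1% in the JB6 libraries at day 12, 17.1% at the lowest, 21.7% at the median and 25.4% at the highest at E13.5 and 15.9% at the lowest, 23.5% at the median and 27.1% at the highest at P0, so every one of these libraries carried more JF1 than B6 read bases. Zfp146 and Zfp266 also leaned to JF1, with log2 ratios between -0.56 and -0.23. Zfp36l1 leaned to B6, with means of 72.7% ± 1.53 in ESCs, 70.8% ± 2.45 at day 12 and 65.7% ± 1.81 at day 21 (SD, n = 4 each), 68.9% ± 1.72 at E13.5 (SD, n = 6) and 67.4% ± 4.31 at P0 (SD, n = 7). Zfp862, annotated as a pseudogene in RefSeq, went from 75.1% ± 2.87 B6 in ESCs (SD, n = 4) to 93.5% ± 3.36 at E13.5 (SD, n = 6) and 91.3% ± 3.96 at P0 (SD, n = 7). Zfp46, Zfp93, Zfp251, Zfp408 and Zfp444 leaned to B6 at every stage, with log2 ratios from 0.31 to 1.40. Zfp317 did so as well, with a far larger ratio in culture. Zfp263 was the exception, toward JF1 in culture and toward B6 in tissue.

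Other members had large ratios at fewer stages. Zfp783, in the chromosome 6 run that holds Zfp862, had 96.2% ± 4.50 B6 at E13.5 (SD, n = 6) and 88.3% ± 6.08 at P0 (SD, n = 7). Zfp560, whose upstream sequence is printed above, had 65.1% ± 2.08 B6 at E13.5 (SD, n = 6) and 74.4% ± 4.65 at P0 (SD, n = 7). Zfp937 had 12.5% ± 2.21 B6 at E13.5 (SD, n = 6), and Zfp534 had 1.51% ± 0.708 B6 in ESCs (SD, n = 4). Zfp937 and Zfp534 share 29.4% and 68.4% of their 50-base stretches with other genes, and their shares are uncertain for that reason. In all, 22 members shared more than 10% of their 50-base stretches, Zfp600 and Zfp534 the most. The other genes named by the size of their ratio were Zfp558 (log2 1.64 at day 12), Zfp641 (1.66 at day 21), Zfp691 (1.22 at E13.5) and Zfp420 (1.28 at P0) toward B6. Toward JF1 they were Zfp575 (-1.63 at day 12), Zfp764 (-1.72 at day 12), Zfp334 (-0.71 at E13.5) and Zfp667 (-0.81 at P0). Zfp764 shares 27.1% of its 50-base stretches with another gene, and Zfp93, named above, 20.8%, so their values are uncertain too.

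Some members were allelically unequal in culture and nearly balanced in tissue. The difference in log2 ratio between day 12 and E13.5 was called for 17 members toward B6 and 14 toward JF1 of 200 tested, beside 16.4% of all genes called in either direction. Between day 21 and P0 it was called for 10 and 17 of 193, beside 19.6% of all genes. With all counts divided by 3, since 1 read gives several read bases, the calls numbered 12 and 15. Zfp423, on chromosome 8, stood furthest out. Zfp423 encodes a factor with a long finger array that takes part in BMP signalling, cerebellar development and fat cell commitment. Its B6 share was 0.441% and 0.631% in the BJ1 libraries and 0.439% and 0% in the JB6 libraries in ESCs, 0.661% and 0.367% in the BJ1 libraries and 0.858% and 0.583% in the JB6 libraries at day 12 and 0.558% and 0.322% in the BJ1 libraries and 0.201% and 0.231% in the JB6 libraries at day 21. At E13.5 the share was 48.3% at the lowest, 52.6% at the median and 56.5% at the highest, and at P0 46.3% at the lowest, 53.8% at the median and 55.9% at the highest. All 12 culture libraries, from both crosses, therefore carried almost no B6 read base, while the 13 tissue libraries lay near equal shares. At every stage 21 strain differences of the gene were covered, with 227 to 634 read bases per culture library. ESC JB6 replicate 2 had 0 B6 of 252 read bases, which allows a share of up to 1.19%, for counting error only and with read bases of 1 read not independent. The difference was -7.44 ± 0.20 SE on the log2 scale at day 12 and -8.35 ± 0.23 SE at day 21.

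Zfp317 leaned the other way. Its B6 share was 87.4% and 87.8% in the BJ1 libraries and 96.3% and 88.8% in the JB6 libraries in ESCs, 91.8% and 91.9% in the BJ1 libraries and 97.3% and 93.5% in the JB6 libraries at day 12 and 93.1% and 86.9% in the BJ1 libraries and 88.8% and 95.2% in the JB6 libraries at day 21, and in tissue 54.7% ± 4.91 at E13.5 (SD, n = 6) and 55.1% ± 2.44 at P0 (SD, n = 7). No culture library overlapped a tissue library (difference in log2 ratio 3.58 at day 12, edgeR adjusted p = 2.77e-15, and 2.96 at day 21, edgeR adjusted p = 1.05e-12). In Zfp263 the low B6 share lay in the JB6 cross: the JB6 culture libraries had B6 shares of 4.10%, 4.43% and 14.3% on average at the 3 stages, and the BJ1 libraries 45.5%, 39.8% and 43.9%. In tissue Zfp263 stood at 55.8% ± 4.11 (SD, n = 6) and 55.3% ± 2.43 (SD, n = 7). The next largest differences at day 12 against E13.5 were those of Zfp14 (log2 2.83), Zfp354a (-2.11) and Zfp575 (-1.86). Zfp354a shares 11.8% of its 50-base stretches with another gene and is uncertain, and the call of Zfp14 was lost without day 12 BJ1 replicate 2 (edgeR adjusted p = 0.142). At day 21 against P0 they were those of Zfp773 (2.15), Zfp641 (1.60) and Zfp575 (-1.55). Per the notes deposited with the tables, the B6 parent of the culture crosses carried stretches of CBA and DBA sequence, and affected strain differences were removed by the authors, 6252 by one statement of the notes and another number by their summary. Whether what is left of such sequence bears on Zfp423, Zfp317 or Zfp263 was not tested.

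**Figure D5:**
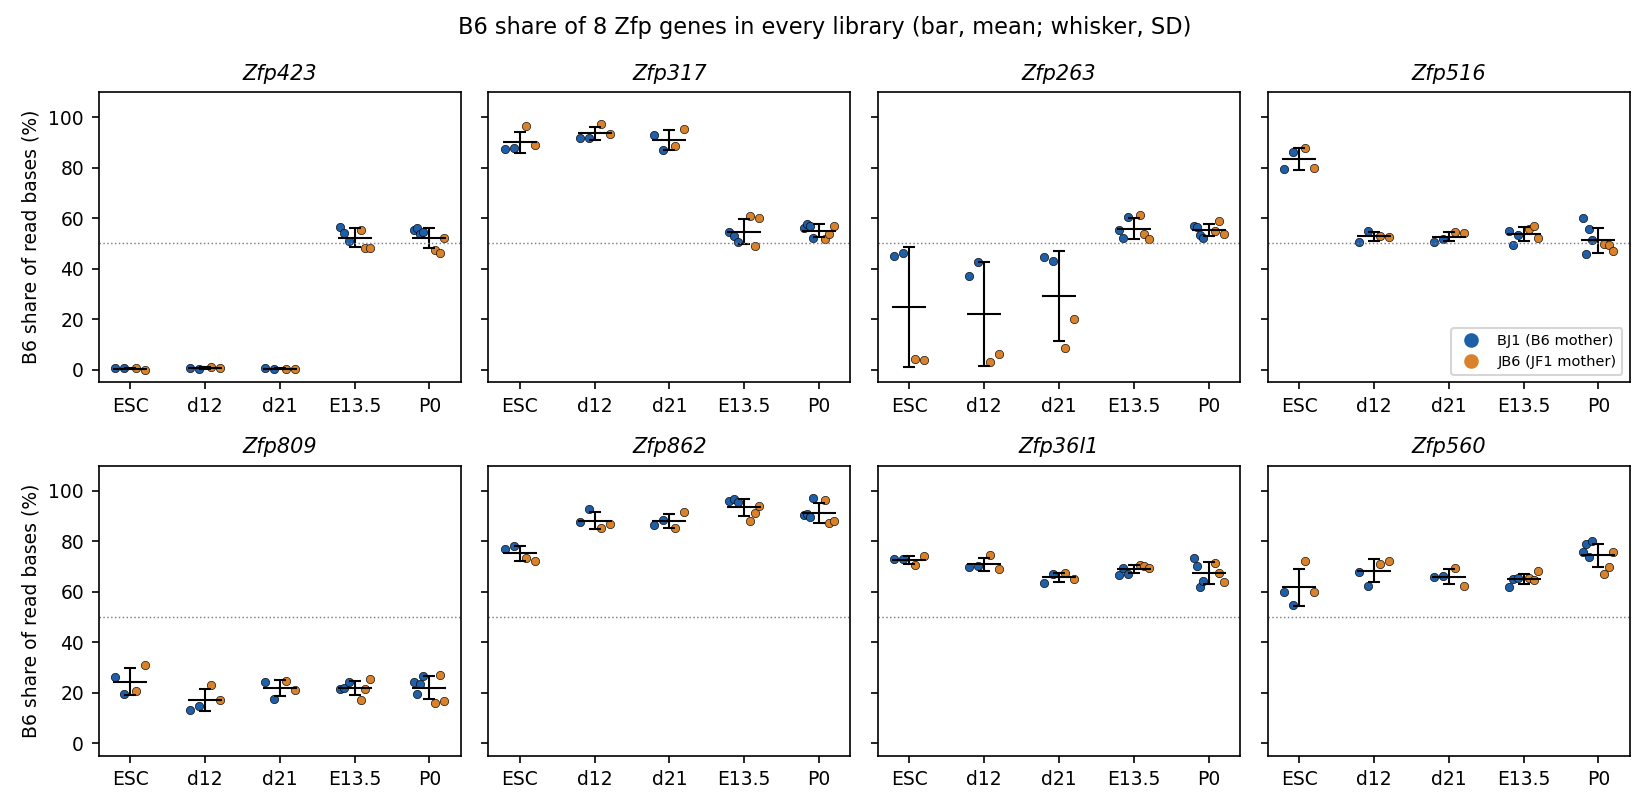
B6 share (percent of read bases) of 8 Zfp genes in every library, by stage and coloured by cross, with the mean as a bar and the SD as a whisker. Zfp423 lies between 0% and 0.858% in the 12 culture libraries and between 46.3% and 56.5% in the 13 tissue libraries, and Zfp809 lies toward JF1 at every stage.

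Allele ratios also changed within culture and within tissue. From ESCs to day 12 the difference was called for 12 members toward B6 and 15 toward JF1 of 180, beside 19.3% of all genes. Zfp516, a factor of brown fat, was at 79.6% and 86.3% in the BJ1 libraries and 87.9% and 80.0% in the JB6 libraries B6 in ESCs and at 50.7% and 54.9% in the BJ1 libraries and 53.0% and 52.4% in the JB6 libraries at day 12, and stayed between 51.3% and 53.7% on average at the 4 later stages (difference in log2 ratio -2.16 ± 0.14 SE, edgeR adjusted p = 3.06e-12). Zfp553 went from 79.4% ± 6.15 in ESCs to 52.6% ± 3.09 at day 12 (SD, n = 4 each, log2 -1.83, edgeR adjusted p = 0.00811). Zfp658 crossed from B6 to JF1, at 73.3% ± 7.99 in ESCs, 41.7% ± 16.7 at day 12 and 40.8% ± 8.96 at day 21 (SD, n = 4 each), and at 27.0% ± 4.04 at P0 (SD, n = 7). Zfp607 moved toward B6 (log2 2.29), a call lost without day 12 BJ1 replicate 1 (edgeR adjusted p = 0.148). From E13.5 to P0, 3 members moved toward B6 and 9 toward JF1 of 210, beside 13.3% of all genes. Zfp560 moved toward B6 (log2 0.62 ± 0.12 SE, edgeR adjusted p = 2.17e-04), and Zfp783 (log2 -2.06), Zfp764 (-1.17), Zfp691 (-1.15) and Zfp663 (-1.11) toward JF1. The value of Zfp764 is uncertain for the shared stretches given above. With all counts divided by 3, 16 members were called from ESCs to day 12 and 4 from E13.5 to P0. The call of Zfp783 was lost without P0 JB6 replicate 1 (edgeR adjusted p = 0.066). That of Zfp667 (log2 -0.50) was lost without P0 JB6 replicate 1, P0 JB6 replicate 3, E13.5 BJ1 replicate 1, E13.5 JB6 replicate 2 or E13.5 JB6 replicate 3 (edgeR adjusted p between 0.0518 and 0.0693).

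Parent of origin left few traces in the family. In tissue, edgeR's test called 0 of 221 members as maternally or paternally biased at E13.5 and 0 of 211 at P0, beside 0.49% and 0.548% of all genes. At an unadjusted p under 0.05 there were 19 and 20 members, beside 593 of 9999 and 684 of 10402 genes. DESeq2 called 0 members at both ages. In culture 2 of 196 were called in ESCs (Zfp740 and Zfp263, beside 1.4% of all genes), 3 of 203 at day 12 (Zfp740, Zfp61 and Zfp263, beside 1.78%) and 2 of 199 at day 21 (Zfp740 and Zfp263, beside 1.38%). The maternal excess of Zfp263 had a log2 ratio of 2.11 in ESCs, 1.84 at day 12 and 1.17 at day 21, and rests on the JB6 cultures described above. In Zfp740 the mean B6 share was 58.2% in BJ1 and 47.1% in JB6 ESCs, and 54.9% ± 1.25 over both crosses at E13.5 (SD, n = 6). At day 12 and day 21 DESeq2 called none of these genes, and single libraries decided several calls. At day 12 the call of Zfp740 was lost without day 12 BJ1 replicate 2, day 12 JB6 replicate 1 or day 12 JB6 replicate 2 (edgeR adjusted p between 0.208 and 0.787), and that of Zfp61 without day 12 BJ1 replicate 1, day 12 JB6 replicate 1 or day 12 JB6 replicate 2 (edgeR adjusted p between 0.096 and 0.16). At day 21 the call of Zfp263 was lost without day 21 BJ1 replicate 1, day 21 BJ1 replicate 2 or day 21 JB6 replicate 1 (edgeR adjusted p between 0.232 and 0.743), and that of Zfp740 without day 21 BJ1 replicate 2 or day 21 JB6 replicate 2 (edgeR adjusted p between 0.11 and 0.359).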

How the data were processed

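RNA was extracted with Trizol and libraries were made with the TruSeq stranded mRNA kit, per the labels' protocols. Per the submitters' processing notes, tools included Novoalign, SAMtools mpileup 0.1.18, HTSeq, CASAVA 1.8.2 and edgeR, and the genome was mm9, with no role or order for each. The deposited tables hold counts: whole-number read bases on each parental allele per gene and library, on the sense strand, per the file headers. No depth scaling was applied in them. Libraries of the E14 line (129P2 strain) were not analysed here.

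Members were chosen by symbol, with a floor of a mean of 20 read bases per library, both alleles added, in at least 1 table. Features just outside were Zfp498 and Zfp932 (18.2) and Zfp354b (19.4), and just inside Zfp709 (20.7), Zfp385c (21.0) and Zfp438 (22.8). The members and the gene lists were chosen with earlier results of these data known. Named genes were, among called members whose mean reached 50 read bases, the 4 largest ratios toward each strain at each stage (on 1 side of 50% in every library) and the 6 largest rises and falls in level. With no such floor they were the 6 largest called differences in ratio, each parental call, and the members of the role lists. Genes at all 5 stages, in runs, at 0 or below the floor were named after their values were seen.

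Levels (both alleles added, TMM scaling, cross and stage in the model) and allele ratios (library, strain and parent in the model, the same library size for both alleles) were tested with edgeR 4.0.16 (limma 3.58.1, R 4.3.3) by its quasi-likelihood test, fitted over all genes over the floor, with Benjamini-Hochberg adjustment and a threshold of 0.05. Standard errors were taken as the log2 value over the square root of F and are approximate. The shifts between culture and tissue and the fits within 1 cross were added after the data were seen. DESeq2 1.42.0, other floors, other scalings, all counts divided by 3 (since 1 read gives several read bases) and single libraries left out were tried as alternatives. The fits were tested on simulated data. No replicates were merged. The chi-square of counts per degree of freedom between the ESC, day 12 and day 21 pairs was 68.2, 36.6 and 39.6 in JB6. In BJ1 it was 10.5, 8.3 and 12.0, and in tissue it ran from 4.14 to 11.5. Read bases of 1 read are not independent, so this measure does not separate counting noise from spread between libraries. Classes (KRAB-A box, fingers) came from translated GENCODE M21 transcripts on GRCm38 in place of RefSeq proteins, while the counts were made on mm9; no coordinates were converted between builds.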

Additional observations from a re-analysis of the deposited data

Results flagged for a closer look

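Dixon's test was run on 186 groups of 4 to 7 libraries, and in 7 of them 1 library stood far from the rest, where chance gives about 1 in 20. For B6 shares they were Zfp317 in ESC JB6 replicate 1 (96.3%, the others 87.4 to 88.8), Zfp783 in E13.5 JB6 replicate 3 (87.7%, the others 96.2 to 100) and Zfp764 in ESC JB6 replicate 2 (33.9%, the others 48.6 to 50.6). For levels they were Zfp503 in ESC JB6 replicate 2 (0.199 CPM, the others 1.23 to 1.42), Zfp422 in E13.5 BJ1 replicate 2 (39.5 CPM, the others 32.3 to 34.1), Zfp641 in E13.5 BJ1 replicate 3 (14.4 CPM, the others 6.39 to 9.13) and Zfp395 in day 12 JB6 replicate 2 (76.0 CPM, the others 116 to 124).

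The change of the log2 B6 to JF1 ratio between stages itself passed the test for 27 members from ESCs to day 12, 12 from E13.5 to P0, 31 at day 12 against E13.5 and 27 at day 21 against P0, and the 6 largest of each are given here. From ESCs to day 12 they were Zfp607 (2.29), Zfp516 (-2.16), Zfp553 (-1.83), Zfp658 (-1.81), Zfp764 (-1.48) and Zfp747 (-1.35). From E13.5 to P0 they were Zfp783 (-2.06), Zfp764 (-1.17), Zfp691 (-1.15), Zfp663 (-1.11), Zfp560 (0.62) and Zfp667 (-0.50). At day 12 against E13.5 they were Zfp423 (-7.44), Zfp317 (3.58), Zfp14 (2.83), Zfp263 (-2.72), Zfp354a (-2.11) and Zfp575 (-1.86). At day 21 against P0 they were Zfp423 (-8.35), Zfp317 (2.96), Zfp773 (2.15), Zfp263 (-1.85), Zfp641 (1.60) and Zfp575 (-1.55). Positive values are toward B6 in the later stage, or in culture. The 2 comparisons of culture with tissue share no library but come from the same crosses. Zfp423, Zfp317, Zfp263 and Zfp575 are in both lists of 6. Zfp764, Zfp747 and Zfp354a share 27.1%, 34.4% and 11.8% of their 50-base stretches with another gene, so their values are uncertain. The causes of these changes were not tested.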

How the results depend on the processing

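Of 3795 values of 233 results for single genes under other settings, 3619 kept their direction and side of the threshold, 101 lost a call, 25 gained one, 50 values that had no call changed sign and 0 called ones did. Counts of members with strain bias, in the order ESC, day 12, day 21, E13.5 and P0, were 74, 51, 45, 82 and 87, and with DESeq2 36, 25, 17, 50 and 51. With all counts divided by 3 they were 52, 34, 24, 56 and 52. Leaving out 1 library gave 47 to 65, 35 to 46, 27 to 36, 72 to 77 and 73 to 85, with the lowest in ESCs without BJ1 replicate 2 and at day 21 without JB6 replicate 1. Parental counts at day 12 were 0 with DESeq2 and 0 with counts divided by 3, and at day 21 0 and 1. Without 1 library they were 2 to 5, 1 to 4, 0 to 1, 0 to 1 and 0 to 1 at the 5 stages. Level counts in the order day 12 against ESC, day 21 against day 12, P0 against E13.5, day 12 against E13.5 and day 21 against P0 were 120, 57, 155, 179 and 173, and 102, 49, 149, 167 and 160 with the replicate number as a block. Deviations of same-numbered libraries had correlations of -0.32 to 0.14. With 2 libraries per culture group the deviations mirror each other, so these values cannot settle whether libraries are paired. The labels give no shared origin, and the libraries were treated as unpaired. Leaving out 1 library gave 101 to 140, 42 to 58, 148 to 156, 173 to 182 and 165 to 174. The first count was 126 within BJ1 alone and 48 within JB6 alone, and the second was 35 within BJ1 and 25 within JB6. Shifts in allele ratio, in the order day 12 against ESC, P0 against E13.5, day 12 against E13.5 and day 21 against P0, were called for 27, 12, 31 and 27 members, for 16, 4, 12 and 15 with counts divided by 3, and for 18 to 23, 8 to 15, 21 to 29 and 21 to 29 without 1 library. The causes of these differences were not tested. Depth limits the allele results of weakly covered members.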
